A study of Mus musculus with 12 samples.

Results

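The 10 genes described here encode the NF-κB subunits and the main proteins that restrain them: the subunits Nfkb1, Nfkb2, Rel, Rela and Relb, the inhibitors Nfkbia, Nfkbib and Nfkbie, the nuclear regulator Nfkbiz, and Tnfaip3. They were listed by name, with earlier results of these data known, and were 10 of 35865 genes in the transcript tables of 12 RNA-Seq libraries. The libraries came from RAW264.7 cells, a mouse macrophage line, cultured for 48 h with extracellular vesicles (EVs) that mouse endothelial MS-1 cells had shed, dosed at 3 µg protein per ml. Every group, the control included, received EVs that had been electroporated: with a miRNA mimic, or with a control mimic that the methods name as the worm miRNA cel-miR-67 (ctrl-EVs). The mimics were those of miR-142-5p, giving the group miR-142-5p-EVs, of miR-183-5p, giving miR-183-5p-EVs, and of miR-222-3p, giving miR-222-3p-EVs. Cells without EVs were not analysed here, so these data hold no untreated level of any gene. Each group had 3 libraries, numbered 1, 2 and 3 in the sample titles. What a shared number stands for is not stated, nor whether the libraries of a group were separate cultures, so p-values measure the spread between these libraries, which may be technical. All the cells are of 1 line, and in bulk RNA fewer cells of a type and less RNA per cell cannot be told apart.

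In the resting cell, dimers of the NF-κB subunits are held in the cytoplasm by inhibitor (IκB) proteins. Signals from receptors such as TLR4 or the TNF receptor activate the IκB kinase complex, the inhibitors are degraded, and the freed dimers enter the nucleus and switch on inflammatory genes. Among those genes are Nfkbia and Tnfaip3 themselves, so that in macrophages the pathway writes its own brakes. Rela and Nfkb1 products form the classical dimer, Relb and Nfkb2 products the alternative dimer, and Rel encodes c-Rel, abundant in blood cells.

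All 10 members passed the test of number 2 against numbers 1 and 3 (DESeq2 adjusted p under 0.05). So did 64.1% of the 13906 tested genes. In the libraries of number 2 all the subunit transcripts other than Rel were lower, and so were those of the inhibitors Nfkbib and Nfkbie. Nfkbia, Nfkbiz and Rel were higher. These directions held in each of the 4 EV groups. No member passed the test between any miR-EV group and ctrl-EVs. At most 0.00719% of all tested genes passed there without the title number in the model, and the intervals were wide. With the title number as a block at most 0.410% passed, no member among them, and the members' intervals were narrower. Rel was the member with the largest fold change in 2 of the 3 mimic comparisons, and it did not pass.

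The mature miRNAs whose mimics were delivered are shown first, because the seed letters are what the members' 3′ UTRs were searched for. The sequences are those of RefSeq (GRCm38.p6), from 5′ to 3′, with the seed, bases 2 to 8, in capitals. None of the 3 seeds is shared.
miR-142-5p: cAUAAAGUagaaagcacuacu
miR-183-5p: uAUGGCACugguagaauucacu
miR-222-3p: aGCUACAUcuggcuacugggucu

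The 7 bases complementary to each seed (ACTTTAT for miR-142-5p, GTGCCAT for miR-183-5p and ATGTAGC for miR-222-3p) were sought in the 3′ UTR of each member's most abundant complete coding transcript. Of the 10 members, Rel had a match for miR-142-5p and a match for miR-222-3p, and the others had 0 matches. The searched 3′ UTRs of Nfkbib, Nfkb1 and Nfkb2 were only 71, 77 and 128 bases long, so their 0 matches say little. Other kinds of site and other parts of the transcripts were not searched. The 3′ UTR of Rel is long, at 5418 bases against a median of 892 over 13092 genes. Of those genes 13.65% held a match for miR-142-5p, 8.815% for miR-183-5p and 9.319% for miR-222-3p. Among all 23 complete coding transcripts of the members, the single further match was in the rare transcript Nfkbib-201, at a mean of 0.351 TPM, for miR-222-3p. Both matches of Rel are shown with the bases around them (GRCm38, minus strand of chromosome 11, the 7 matching bases in capitals), at bases 1004 and 4410 of the 3′ UTR. A match of letters is a description and not a site shown to be used.
Rel, miR-222-3p match (chr11:23741254-23741276): tggcctcaacctgctATGTAGCc
Rel, miR-142-5p match (chr11:23737848-23737870): gcttctgcctcccagACTTTATt

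Promoter windows around the RefSeq gene start were matched for 7 of the members and were read for the κB consensus, the letter pattern that NF-κB dimers bind, on both strands and with overlaps counted. The consensus was found in 5 of 7 members (Nfkb2, Rel, Nfkbia, Nfkbie and Tnfaip3) and in 9.55% of 27025 genes with a window. Rela and Nfkbib had 0 matches in their windows. Nfkb1, Relb and Nfkbiz were not matched. The windows of Nfkbia, Rel and Nfkb2 (GRCm38.p6, for Nfkb2 the first of 3) are printed as examples that hold the consensus. Nfkbia and Rel were higher and Nfkb2 was lower in number 2, and any link between a match and a direction was not tested. Capitals mark the matches.
Nfkbia (chr12:55492598-55492897, minus strand): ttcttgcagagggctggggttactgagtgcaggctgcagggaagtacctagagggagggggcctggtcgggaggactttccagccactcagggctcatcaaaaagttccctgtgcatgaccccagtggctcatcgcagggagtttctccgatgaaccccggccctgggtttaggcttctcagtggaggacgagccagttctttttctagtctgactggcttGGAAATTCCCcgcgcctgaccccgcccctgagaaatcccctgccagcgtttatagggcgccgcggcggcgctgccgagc
Rel (chr11:23770920-23771219, minus strand): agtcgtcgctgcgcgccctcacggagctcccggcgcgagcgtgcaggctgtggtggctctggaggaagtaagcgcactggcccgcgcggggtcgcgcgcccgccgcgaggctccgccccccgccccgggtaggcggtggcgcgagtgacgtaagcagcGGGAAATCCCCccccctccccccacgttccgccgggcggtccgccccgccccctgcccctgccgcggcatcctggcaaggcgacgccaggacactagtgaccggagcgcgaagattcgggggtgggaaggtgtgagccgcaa
Nfkb2 (chr19:46304487-46304786, plus strand): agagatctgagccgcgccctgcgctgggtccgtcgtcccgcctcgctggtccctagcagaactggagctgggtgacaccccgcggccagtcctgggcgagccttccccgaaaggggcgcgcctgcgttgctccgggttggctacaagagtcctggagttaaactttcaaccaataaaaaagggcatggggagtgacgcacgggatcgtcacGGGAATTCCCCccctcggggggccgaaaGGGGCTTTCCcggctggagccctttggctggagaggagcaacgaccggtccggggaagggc

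Levels are compared between genes in TPM, a share of all transcripts that accounts for transcript length. Nfkbia, which encodes IκBα, stood far above the others at 134.7 ± 31.8 TPM (SD, n = 12 libraries), rank 927 from the top of all genes. Then came Nfkb1, the gene of p105 and p50, at 55.7 ± 20.2 TPM, Rela, the gene of p65, at 35.8 ± 10.9 TPM, and Nfkb2, the gene of p100 and p52, at 23.9 ± 8.41 TPM. These 4 kept that order in every one of the 12 libraries. The levels are sums over all transcripts of a gene, coding or not. The most abundant coding transcript alone had a mean of 69.3 TPM for Nfkbia, 25.2 TPM for Nfkb1, 22.9 TPM for Rela and 16.7 TPM for Nfkb2.

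The lower members were close to each other. Nfkbiz (IκBζ) was at 23.4 ± 5.91 TPM, Nfkbib (IκBβ) at 19.0 ± 7.28 TPM and Rel at 15.8 ± 3.30 TPM. Nfkb2 was above Nfkbiz in 8 of 12 libraries, Nfkbiz above Nfkbib in 6 of 12 and Nfkbib above Rel in 8 of 12, so these neighbours did not differ beyond their spread. Tnfaip3, which encodes the ubiquitin-editing enzyme A20, was at 10.1 ± 1.35 TPM, below Rel in 12 of 12 libraries. Relb at 7.40 ± 3.24 TPM and Nfkbie (IκBε) at 7.18 ± 4.22 TPM were the lowest, and Relb was the higher in 9 of 12. Only Nfkbia had a range, 92.7 to 201 TPM, clear of its neighbour's, 28.4 to 81.9 TPM for Nfkb1.

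Each member is protein-coding. On GRCm38 (GENCODE vM21) Nfkb1 spans chr3:135584655-135691547 on the minus strand, Rel chr11:23736847-23770970 (minus) and Relb chr7:19606217-19629438 (minus). Nfkb2 spans chr19:46304320-46312385 and Rela chr19:5637483-5648130, both on the plus strand. Among the inhibitors, Nfkbia lies at chr12:55489410-55492647 (minus), Nfkbib at chr7:28758251-28767512 (minus) and Nfkbie at chr17:45555703-45563169 (plus). Nfkbiz spans chr16:55811375-55838899 and Tnfaip3 chr10:19000910-19015657, both on the minus strand. Over 778 bases Nfkbib overlaps Sirt2 and over 718 bases Ccer2, both on the opposite strand, Nfkb2 shares 299 bases with Psd on the opposite strand and 1292 with the lncRNA AC114539.1, and Nfkb1 shares 3897 bases with Gm43430 on its own strand. Whether the counting used strand is not stated, so part of the counts of these 3 members is uncertain, and its size was not measured.

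The estimated counts behind these levels were sufficient in all libraries. The lowest was 73 counts, for Nfkbie, and the highest was 3527, for Nfkb1. All 10 members passed the filter of at least 10 counts in at least 3 libraries, which 13906 genes passed, so every member was tested in every comparison.

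Gene levels are sums over annotated transcripts, and for some members a large part of the sum is not coding. Nfkbia-202, a 701-base transcript with a retained intron, took 36.7% to 56.5% of Nfkbia TPM over the 12 libraries, and the coding Nfkbia-201 took the rest. Of Nfkb1, the leading coding transcript took 34.9% to 52.0% and the retained-intron Nfkb1-202 18.0% to 34.2%. Rel has a single listed transcript, and Nfkbib-202 held at least 90.8% of Nfkbib. The share of Nfkbiz-204 in Nfkbiz was 78.9% to 90.5% in number 2, against 55.7% to 68.1% in number 1 and 61.5% to 81.8% in number 3, so that number 2 overlapped number 3. Transcript shares of Relb could not be read at this depth, since the share of Relb-202 ran from 0% to 69.5%.

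RAW264.7 identity was checked by marker genes, in TPM. Of 10 macrophage markers 9 were tested, and among them Cd68 was at 321 to 416 TPM and Ptprc at 201 to 290 TPM, while Mertk was at most 0.142 TPM. Of 10 endothelial markers, those of the cells that shed the EVs, Cldn5 was at 0 in all libraries, Emcn was at most 0.0222 TPM and Kdr at most 0.0629 TPM. Egfl7 was the highest at 10.1 to 26.2 TPM. The library totals ran from 16294611 to 22974853 estimated counts, and the 4 lowest totals were the 4 libraries of number 2. Mitochondrial genes took 4.47% to 4.62% of counts in number 1, 4.88% to 5.41% in number 2 and 3.48% to 3.92% in number 3. These values move with the title number and stand beside every comparison of numbers in this report; their part in it was not tested.

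Comparisons between libraries use normalized counts, which are estimated counts divided by a size factor and a transcript-length offset, and which are not compared between genes. The values of the 4 libraries of a number are always given with ctrl-EVs first, then miR-142-5p-EVs, then miR-183-5p-EVs, with miR-222-3p-EVs last. The plot of the members by title number gives all 120 values.

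**Figure D1:**
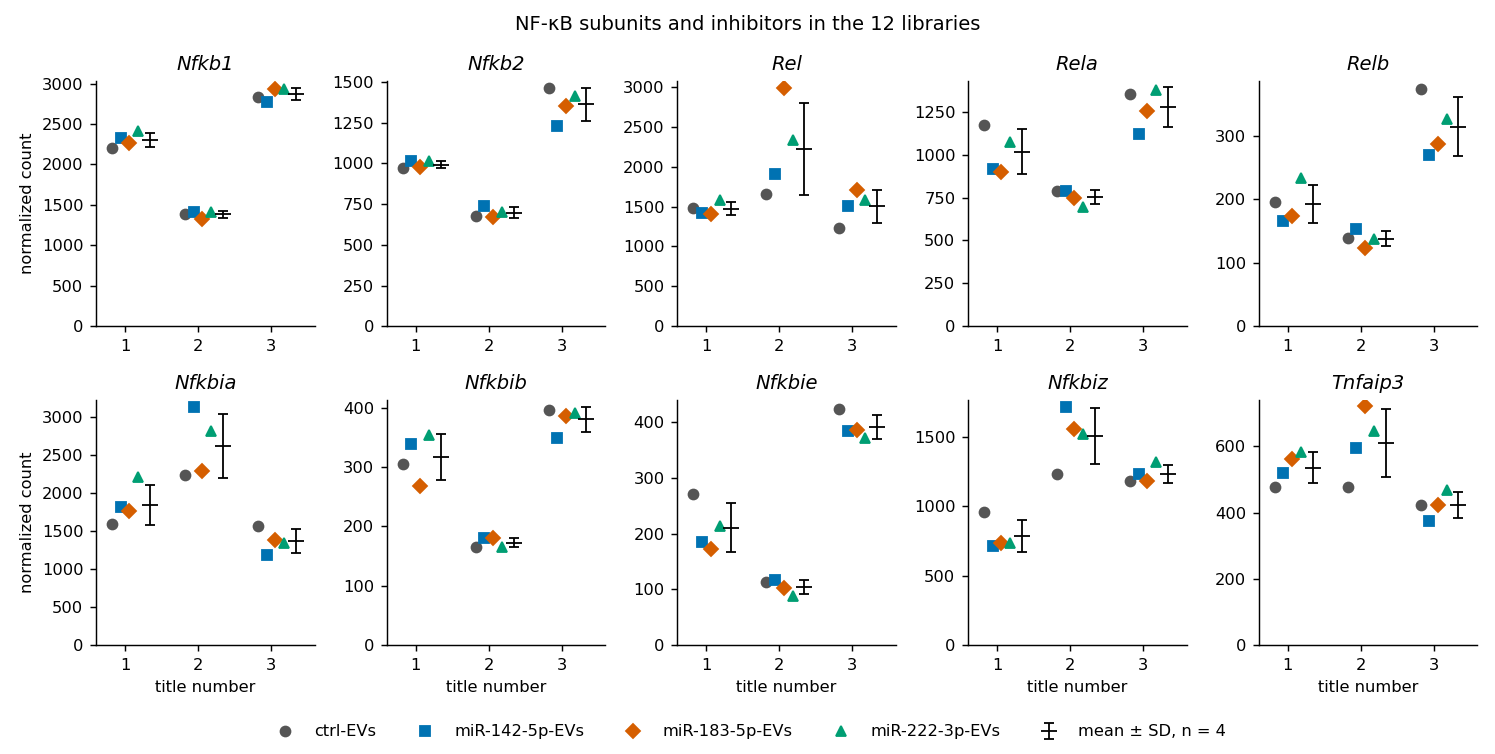
Normalized counts (vertical axis, from 0, different in each panel) of the 10 members by title number (horizontal axis) in the 12 libraries. Symbols give the EV group and bars the mean ± SD of the 4 libraries of a number; Nfkb1 in number 2 sits between 1321 and 1414 and in number 3 between 2775 and 2937 in all EV groups.

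To ask which libraries differ when the EV group does not, the libraries of number 2 were compared with those of numbers 1 and 3. The EV group was a term in the model. This contrast was proposed with earlier results of these data known, so its tests describe a difference already seen. All 10 members were called (DESeq2 Wald test, adjusted p under 0.05), 4 higher and 6 lower. This must be read against the rest of the transcriptome: 64.1% of the 13906 tested genes were called, 32.0% higher and 32.1% lower. The median log2 fold change of the members was -0.66, against 0.0067 over all tested genes, and their median absolute value was 0.73, against 0.457 over all tested genes. Groups without overlap were found for 6 members that were lower (21.0% of all tested genes) and 1 that was higher, Nfkbia (20.2% of all tested genes). Each number is present as 1 set of 4 libraries of different EV groups. The SE and p-values of all comparisons of numbers measure the spread among these libraries, not whether a difference would recur in another set.

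Among the subunits, Nfkb1 had 1387, 1406, 1321 and 1414 normalized counts in number 2. It had 2202, 2322, 2263 and 2412 in number 1, and 2838, 2775, 2937 and 2934 in number 3. The numbers did not overlap, and within a number the highest library was at most 1.10 times the lowest. The log2 fold change of number 2 was -0.89 ± 0.06 (SE; DESeq2 adjusted p = 1.14e-45).

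The counts of Rela in number 2 were 786, 786, 745 and 696. In number 1 they were 1174, 919, 900 and 1075, and in number 3 they were 1353, 1118, 1256 and 1378. Number 2 lay below every other library, whereas numbers 1 and 3 overlapped. The log2 fold change was -0.59 ± 0.09 (SE; DESeq2 adjusted p = 1.23e-10).

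The genes of the alternative dimer moved the same way. Nfkb2 was at 669 to 741 normalized counts in number 2, against 970 to 1013 in number 1 and 1226 to 1463 in number 3, a log2 fold change of -0.74 ± 0.08 (SE; DESeq2 adjusted p = 2.99e-19). For Relb the ranges were 124 to 153, 166 to 233 and 269 to 374, and the log2 fold change was -0.82 ± 0.14 (SE; DESeq2 adjusted p = 7.48e-09). For both genes the 3 numbers lay apart.

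Rel went the other way. In number 2 it had 1657, 1907, 2983 and 2335 normalized counts. In number 1 the counts were 1482, 1415, 1403 and 1586, and in number 3 they were 1225, 1500, 1706 and 1582. Number 2 was the highest in each of the 4 EV groups, although its ctrl-EVs library lay below the miR-183-5p-EVs library of number 3. The log2 fold change was 0.55 ± 0.11 (SE; DESeq2 adjusted p = 6.41e-07), and Rel was the member whose number 2 libraries differed most among themselves, by 1.80 times between the lowest and the highest.

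Of the classical inhibitors, Nfkbia had 2237, 3123, 2289 and 2808 normalized counts in number 2. It had 1583, 1812, 1762 and 2200 in number 1 and 1569, 1184, 1386 and 1343 in number 3. Every library of number 2 was above every other library. The log2 fold change was 0.71 ± 0.11 (SE; DESeq2 adjusted p = 6.13e-10).

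Nfkbie showed the largest difference of all the members, in the opposite direction. Its counts in number 2 were 113, 116, 102 and 88.6, against 271, 185, 172 and 214 in number 1 and 423, 383, 386 and 371 in number 3. The 3 numbers did not overlap, and the log2 fold change was -1.45 ± 0.14 (SE; DESeq2 adjusted p = 1.49e-23). Nfkbib, at 166 to 180 normalized counts in number 2, 268 to 355 in number 1 and 349 to 396 in number 3, had a log2 fold change of -1.0 ± 0.12 (SE; DESeq2 adjusted p = 1.82e-15). The inhibitor genes thus split, with Nfkbia higher and Nfkbib and Nfkbie lower in the same libraries.

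Nfkbiz encodes an atypical IκB protein that acts in the nucleus as a co-regulator of some NF-κB target genes. It had 1232, 1716, 1558 and 1521 normalized counts in number 2, 959, 713, 739 and 736 in number 1, and 1184, 1234, 1185 and 1323 in number 3. Number 2 was the highest in every EV group, but its ctrl-EVs library lay below 2 libraries of number 3. Its log2 fold change was 0.61 ± 0.11 (SE; DESeq2 adjusted p = 7.23e-08).

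Tnfaip3 had 477, 595, 723 and 646 normalized counts in number 2, 477, 519, 562 and 582 in number 1 and 424, 375, 424 and 468 in number 3. The ctrl-EVs library of number 2 was level with that of number 1 and above that of number 3. The log2 fold change was 0.35 ± 0.10 (SE; DESeq2 adjusted p = 8.87e-04). It was the only member whose call depended on the scale: on log2(TPM + 1) values the change was 0.11 with a limma adjusted p of 0.285.

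On the TPM scale the other 9 members were called in the same direction. That scale puts more genes lower in number 2, with 64.8% of the tested genes called, 20.3% higher and 44.5% lower, and a median over all genes of -0.17. Relative to that shift the direction of each of the 9 held. Rel, at 0.31 with a limma adjusted p of 0.0310, was the nearest to the threshold.

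The 4 libraries of number 1 were then compared with the 4 of number 3 in the same model. Of the 10 members 8 were called, 2 higher and 6 lower in number 1, where 23.4% of all tested genes were called, 12.9% higher and 10.5% lower. The median log2 fold change of the members was -0.33. Without overlap were 2 members that were higher (13.2% of all tested genes), Nfkbia and Tnfaip3, and 5 that were lower (12.0% of all tested genes), Nfkb1, Nfkb2, Relb, Nfkbie and Nfkbiz.

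Nfkbie was again the most different, with a log2 fold change of -0.91 ± 0.14 (SE; DESeq2 adjusted p = 1.50e-08). Relb followed at -0.71 ± 0.15 (SE; adjusted p = 2.98e-05) and Nfkbiz at -0.65 ± 0.13 (SE; adjusted p = 7.05e-06). Smaller falls were those of Nfkb2 at -0.46, Rela at -0.33 and Nfkb1 at -0.32. The transcripts of Nfkbia were higher by 0.41 ± 0.13 (SE; DESeq2 adjusted p = 0.00900) and those of Tnfaip3 by 0.34 ± 0.11 (SE; DESeq2 adjusted p = 0.0176). Rel, at -0.01 with a 95% interval of -0.25 to 0.23, and Nfkbib, at -0.27 with an interval of -0.52 to -0.01 and an adjusted p of 0.125, did not pass.

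These smaller differences depended on single libraries more than those of number 2. Without miR-222-3p-EVs replicate 3 the count of members called fell to 5, with Rela, Nfkbia and Tnfaip3 lost at DESeq2 adjusted p of 0.0780, 0.0843 and 0.0669. Rela was also lost without miR-142-5p-EVs replicate 1 or miR-183-5p-EVs replicate 1 or 3, and Nfkbia without miR-142-5p-EVs replicate 3 or miR-222-3p-EVs replicate 1. Tnfaip3 was lost without replicate 1 or replicate 3 of any of the miR-EV groups. Tnfaip3 was also lost on the TPM scale (limma adjusted p = 0.132) and without the length offset (DESeq2 adjusted p = 0.133). On the TPM scale 7 members were called, all lower, with Nfkbia at an adjusted p of 0.0551 and Nfkbib now called at 0.0419. There 20.5% of all tested genes were called, 7.65% higher and 12.8% lower.

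**Figure D2:**
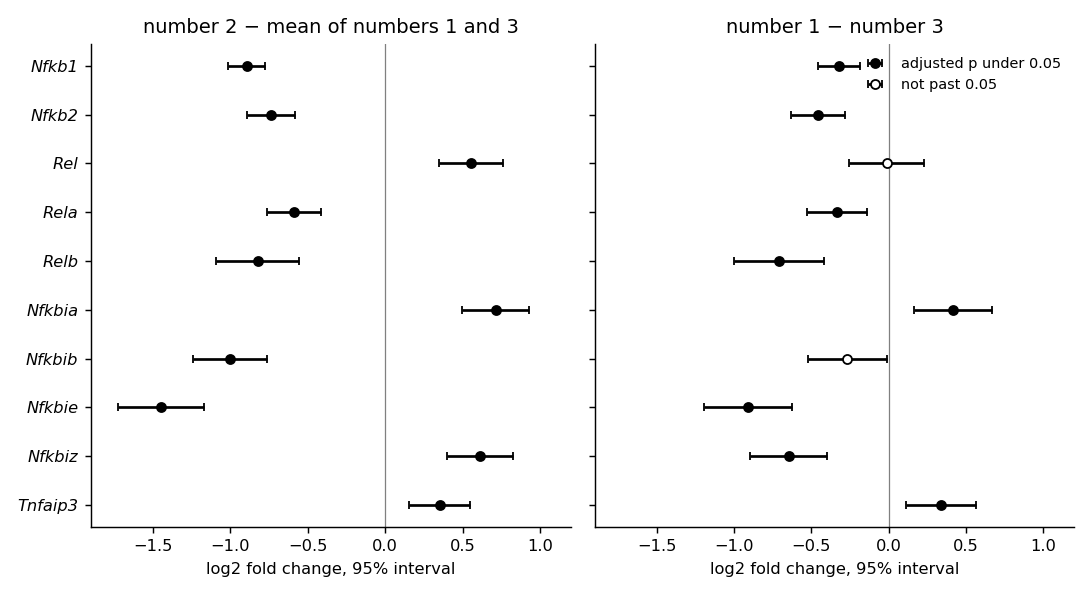
Log2 fold changes of the 10 members (horizontal axis, points with 95% intervals) for number 2 against the mean of numbers 1 and 3 (left) and number 1 against number 3 (right). Filled points passed an adjusted p of 0.05: all 10 on the left, and on the right all but Rel and Nfkbib.

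Within each EV group the order of the title numbers was the same for most members. Nfkb1, Nfkb2, Rela, Relb, Nfkbib and Nfkbie stood in the order 2, 1, 3 from the lowest to the highest in 4 of 4 EV groups. Nfkbia stood in the order 3, 1, 2 and Nfkbiz in the order 1, 3, 2 in 4 of 4. For Tnfaip3 the order was 3, 1, 2 in 3 of 4 EV groups, and in ctrl-EVs number 1 exceeded number 2 by under 1 normalized count. Rel had number 2 highest in 4 of 4, with numbers 1 and 3 in either order.

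Because subunits and inhibitors are compared here per length, their TPM values can be summed. The 5 subunits together had 90.6 to 92.8 TPM in the 4 libraries of number 2, 132 to 144 TPM in number 1 and 173 to 201 TPM in number 3. Nfkbia, Nfkbib and Nfkbie together had 152 to 214 TPM in number 2, 141 to 186 TPM in number 1 and 130 to 150 TPM in number 3. So the ratio of inhibitor to subunit TPM was 1.67 to 2.31 in number 2, 1.01 to 1.29 in number 1 and 0.732 to 0.849 in number 3, with no overlap between the numbers. Most of the inhibitor sum was Nfkbia, at 140 to 201 TPM in number 2. Nfkbib, at 9.43 to 10.5 TPM, and Nfkbie, at 2.32 to 3.13 TPM, were at their lowest in number 2. The ratio thus follows Nfkbia and the subunits and does not describe each inhibitor. These sums include transcripts with a retained intron. Over protein-coding transcripts alone, an alternative added after seeing the data, the ratio was 1.39 to 1.65 in number 2, 0.756 to 0.930 in number 1 and 0.615 to 0.703 in number 3, again without overlap. Protein was not measured.

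The make-up of the subunit sum changed mainly in Rel and Nfkb1. Rel took 15.8% to 26.1% of subunit TPM in number 2, against 9.94% to 10.3% in number 1 and 6.48% to 9.13% in number 3. Nfkb1 took 31.1% to 35.5% in number 2, 39.7% to 43.9% in number 1 and 40.4% to 43.5% in number 3. The share of Rela hardly moved, at 23.7% to 29.4% over all 12 libraries.

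**Figure D3:**
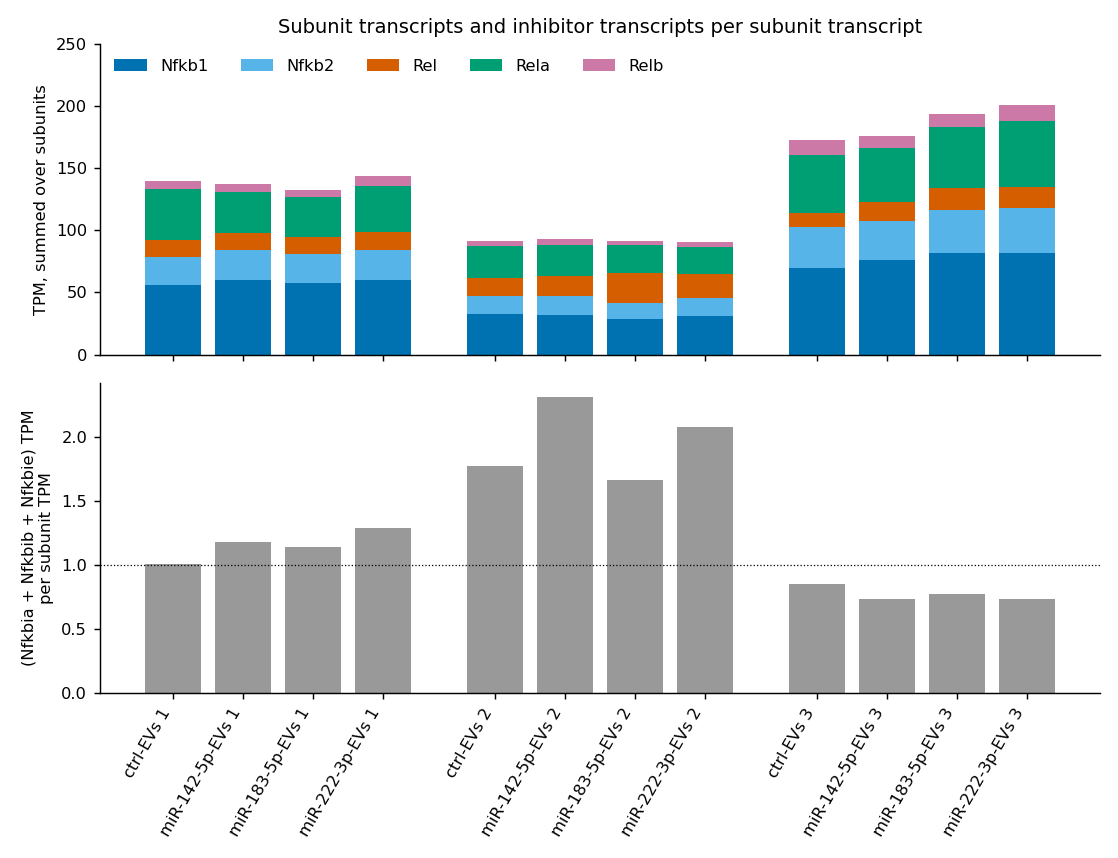
Upper panel, TPM of the 5 subunit genes stacked in each of the 12 libraries; lower panel, TPM of Nfkbia, Nfkbib and Nfkbie together divided by the subunit TPM, with a dotted line at 1. The number 2 libraries have the lowest subunit sums and ratios of 1.67 to 2.31, and the number 3 libraries have ratios under 1.

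The comparison the study was designed for, each miR-EV group with ctrl-EVs, gave 0 of 10 members called in any of the 3 mimics (DESeq2 Wald test). Of all tested genes 0.00719% passed with miR-142-5p-EVs, and 0% did with either of the other mimics, so few genes of any kind passed. Unadjusted p under 0.05 was reached by 0 members in each, and edgeR's quasi-likelihood test also called 0, with 0 at an unadjusted p under 0.05. All 9 miR-EV libraries against the 3 ctrl-EVs libraries gave 0 members called (0% of all tested genes), and the likelihood ratio test for any difference among the 4 EV groups gave 0 (0.00719%). No member had a miR-EV group clear of ctrl-EVs, while 2.70%, 3.20% and 2.69% of all tested genes did in the 3 comparisons and 0.302% did for the 9 libraries together.

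The intervals show how little this design could see without regard to the title number. For Nfkbie in miR-183-5p-EVs the log2 fold change was -0.29 with a 95% interval of -1.58 to 1.0, and for Nfkb1 it was 0.02 with an interval of -0.77 to 0.81. The libraries of a number deviated together, as shown above, and with the number as a block in the model the interval of Nfkb1 narrowed to -0.15 to 0.17. The blocked fit called 0.410% of all tested genes in miR-183-5p-EVs, 0.0575% in miR-142-5p-EVs and 0.0647% in miR-222-3p-EVs. It called 1.60% in the 9 miR-EV libraries together and 0.0863% for any difference. No member was among them, although 2 members in miR-183-5p-EVs, the same count in miR-222-3p-EVs and 3 in the 9 libraries had an unadjusted p under 0.05. Of the 13906 tested genes 1409, 908 and 1896 did so in these comparisons. With the same block edgeR called 0 genes of any kind in every comparison of EV groups.

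**Figure D4:**
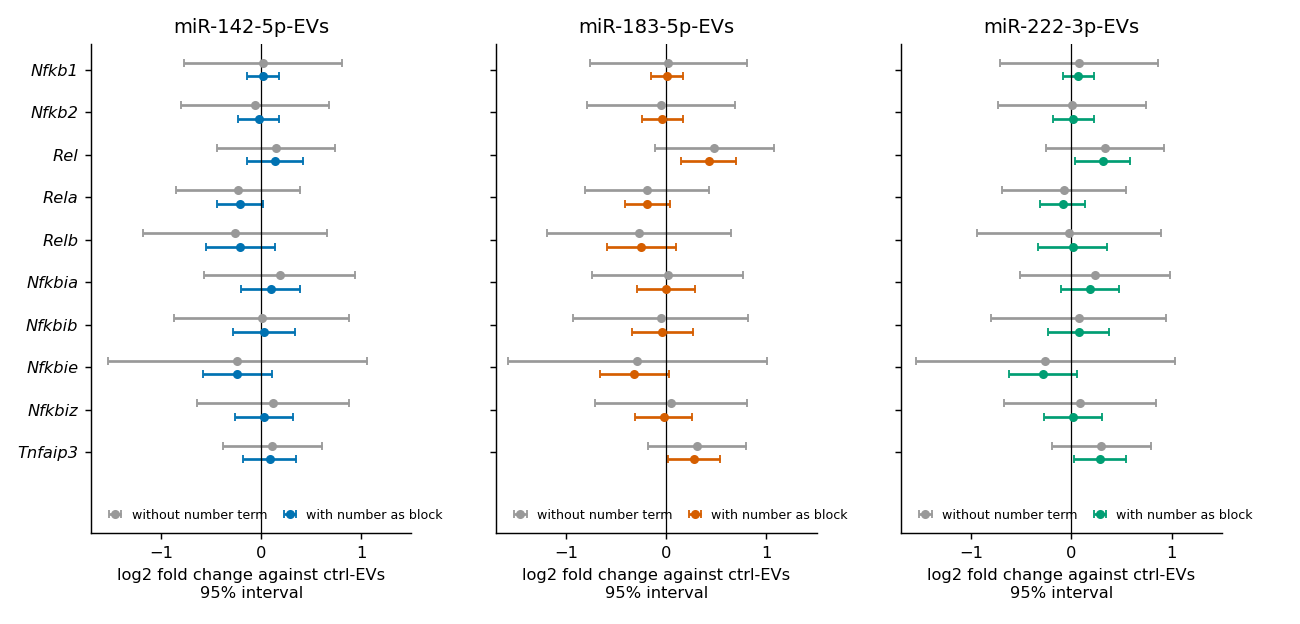
Log2 fold changes of the 10 members against ctrl-EVs (horizontal axis, points with 95% intervals) for the 3 mimics, without the title number in the model (grey) and with it as a block (coloured). Blocked intervals exclude 0 before adjustment for Rel and Tnfaip3 in miR-183-5p-EVs and also in miR-222-3p-EVs, and no adjusted p was under 0.05.

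Rel came nearest to the threshold. Its level in ctrl-EVs was 1482, 1657 and 1225 normalized counts in numbers 1, 2 and 3, against 1403, 2983 and 1706 in miR-183-5p-EVs. It was 1586, 2335 and 1582 in miR-222-3p-EVs and 1415, 1907 and 1500 in miR-142-5p-EVs. The differences from the ctrl-EVs library of the same number were above 0 in 7 of 9 libraries. Both exceptions were in number 1. With the block the log2 fold change was 0.42 ± 0.14 in miR-183-5p-EVs (SE; DESeq2 adjusted p = 0.143), 0.31 ± 0.14 in miR-222-3p-EVs (adjusted p = 0.519) and 0.14 ± 0.14 in miR-142-5p-EVs (adjusted p = 0.967).

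Single libraries moved Rel in both directions. Without ctrl-EVs replicate 1 the blocked log2 fold change of Rel in miR-183-5p-EVs was 0.58 (DESeq2 adjusted p = 0.00620), and without miR-183-5p-EVs replicate 1 it was 0.59 (adjusted p = 0.00821). Without miR-183-5p-EVs replicate 2 it was 0.24 (adjusted p = 0.997), and without ctrl-EVs replicate 2 it was 0.31 (adjusted p = 0.333). In miR-222-3p-EVs the value ran from 0.20 without ctrl-EVs replicate 2 to 0.47 without ctrl-EVs replicate 1, with no call. Over the 9 miR-EV libraries the blocked value was 0.29 ± 0.12 (SE; adjusted p = 0.191), with 0.46 without ctrl-EVs replicate 1 (adjusted p = 0.0300) and 0.18 without ctrl-EVs replicate 2 (adjusted p = 0.602). With the 4 libraries of number 2 left out it was 0.18 (adjusted p = 0.368).

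Tnfaip3 had differences above 0 in 7 of 9 libraries, from -0.18 to 0.60 on the log2 scale with a median of 0.24. In the blocked fit they came to 0.27 ± 0.13 in miR-183-5p-EVs (SE; DESeq2 adjusted p = 0.390) and 0.28 ± 0.13 in miR-222-3p-EVs (SE; 95% interval 0.02 to 0.54, with no adjusted p because DESeq2's filter on mean counts left the gene out). For the 9 libraries together the value was 0.22 ± 0.11 (SE; DESeq2 adjusted p = 0.290). Without number 2 it was 0.11 (adjusted p = 0.692).

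Nfkbie was the member most often lower than in the ctrl-EVs library of the same number, in 8 of 9 libraries, with differences from -0.66 to 0.04 on the log2 scale. Blocked, the 9 libraries together gave -0.28 ± 0.12 (SE; DESeq2 adjusted p = 0.211), and -0.33 without number 2 (adjusted p = 0.157). Rela was lower in 7 of 9 libraries, at -0.16 ± 0.09 in the blocked fit (SE; DESeq2 adjusted p = 0.342). None of these passed the threshold.

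Relb was lower in 7 of 9 libraries and Nfkb1 higher in 7 of 9, the latter by at most 0.13 on the log2 scale. Nfkb2, Nfkbia, Nfkbib and Nfkbiz had at most 6 of 9 on one side of 0. Blocked over the 9 libraries, Nfkb1 was at 0.03 with a 95% interval of -0.07 to 0.14, Nfkb2 at -0.02 (-0.16 to 0.13), Nfkbib at 0.02 (-0.20 to 0.24) and Nfkbiz at 0.01 (-0.21 to 0.22). Nfkbia was at 0.09 (-0.14 to 0.33) and Relb at -0.15 (-0.42 to 0.12). Nfkb1 had the narrowest interval of these 6, and Relb, with a mean of 215 normalized counts, the widest.

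The differences from the ctrl-EVs library of the same number, in the plot of paired differences, share that library, so the 3 points of a number are not independent. For 3 members, Nfkb2, Nfkbia and Nfkbiz, all points of a number lay on one side of 0 and all points of another number on the opposite side. How many of all tested genes did so was not counted. Nfkbiz was lower in the 3 miR-EV libraries of number 1, at -0.43, -0.38 and -0.38, and higher in number 2, at 0.48, 0.34 and 0.30. Nfkbia was higher in numbers 1 and 2, with medians of 0.19 and 0.33, and lower in number 3, with a median of -0.22.

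**Figure D5:**
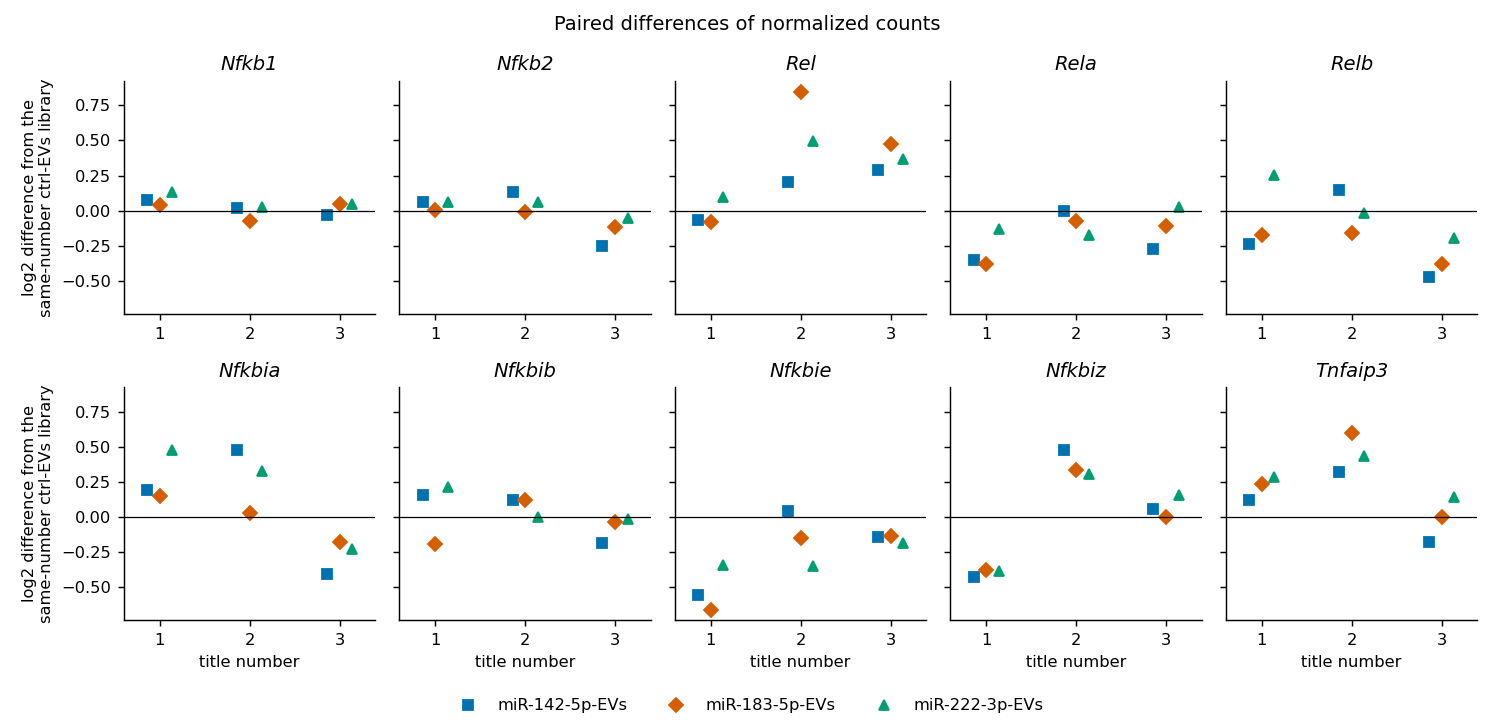
Log2 difference of the normalized count from the ctrl-EVs library of the same title number (vertical axis, shared by all panels) for the 3 miR-EV groups in numbers 1, 2 and 3 (horizontal axis). Rel lies between -0.08 and 0.85 and Nfkb1 between -0.07 and 0.13; in Nfkbiz all points of number 1 are below 0 and all points of number 2 are above 0.

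Other genes of the pathway were taken as lists, whose counts stand beside 64.1% of all tested genes called in number 2 against numbers 1 and 3, 32.0% higher and 32.1% lower. Among 9 receptors that signal to NF-κB, 8 were called in number 2 against numbers 1 and 3, 1 higher and 7 lower, with a median log2 fold change of -1.02. The largest falls were those of Il1r1, the interleukin-1 receptor, at -1.96 and Cd14, the co-receptor of TLR4 and also among the macrophage markers, at -1.48, and Tnfrsf11a (RANK) was higher by 0.83. Of 27 kinases and adaptors that carry the signal, 22 were called, 8 higher and 14 lower, with Myd88, the adaptor of Toll-like receptors, at -1.58, Ripk1 at -1.46, Map3k8 at 0.70 and Traf3 at 0.61. Of 17 other regulators 13 were called, 6 higher and 7 lower. There the members' neighbours Nfkbid (IκBNS) at 0.63 and Tnip2, an A20-binding protein, at 1.84 were higher, and Otulin at -0.98 and Pdlim2 at -0.58 were lower.

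Of 33 genes that NF-κB is known to induce, 28 were tested and 23 were called, 9 higher and 14 lower in number 2, with a median of -0.38. The chemokine genes Ccl2 at -3.46 and Cxcl2 at -2.72 were lower, and Gadd45b at 1.56 and the chemokine gene Ccl5 at 1.04 were higher. The targets thus went both ways, as the inhibitors did. The macrophage marker Fcgr1 was at -2.32 and Adgre1 was higher by 0.69 in the same libraries. Of 9 tested macrophage markers 6 were called, 2 higher and 4 lower, and of 6 tested endothelial markers 4 were called, all lower.

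In number 1 against number 3, 23.4% of all tested genes were called, 12.9% higher and 10.5% lower. Receptors had 5 of 9 called, 1 higher and 4 lower, with Cd40 at -0.73 and Tnfrsf1b at -0.42. Kinases and adaptors had 6 of 27 called, 1 higher (Ticam1 at 0.44) and 5 lower, and other regulators had 5 of 17, 2 higher and 3 lower, with Bcl3, a nuclear partner of p50 and p52, at -1.13 and Tnip1 at -0.67. Of the induced genes 12 of 28 were called, 8 higher and 4 lower, led by Nos2, the inducible nitric oxide synthase, at 2.61 and Ier3 at 1.2, with Csf1 at -0.84 and Traf1 at -0.46 lower. Of the macrophage markers 3 of 9 were called, 2 higher and 1 lower, and of the endothelial markers 3 of 6, 1 higher and 2 lower.

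Between the EV groups 0 genes of any list were called without the block. With it, 1 induced gene was called for the 9 miR-EV libraries, Traf1, a signalling adaptor, which was lower, at -0.45 (DESeq2 adjusted p = 9.44e-04), where 1.60% of all tested genes were called. With edgeR and the block it was not called.

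The genes most like each member over the 12 libraries were found by Pearson's r of log2(normalized count + 1) among the 10857 genes whose mean normalized count was 50 or more. The libraries fall into 3 clusters by title number, so a high r over 12 libraries mostly restates the order of the numbers, and r after the mean of each number was removed is given beside it, both as descriptions. Genes close to Rel included Mfsd4a (0.973 over the libraries, 0.936 within numbers) and Ppp1r12a (0.970 and 0.926). Nfkb1 was most like Nek6, at 0.992 over the libraries but 0.309 within numbers, and Nfkb2 was most like Galnt10, at 0.984 and 0.502.

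In 2 cases a member was among the genes most like another member, and the reverse did not hold. Nfkbie was the gene most like Rela (0.972 over the libraries, 0.810 within numbers), and Nfkb1 was the third most like Nfkbib (0.980 and 0.466). The gene most like Nfkbia was Ctsa (0.971 and 0.895), that for Nfkbie was Nceh1 (0.990 and 0.819) and that for Tnfaip3 was Entpd7 (0.945 and 0.841). For Relb, Nfkbib and Nfkbiz they were Hist3h2a (0.966 and 0.653), Cyb5rl (0.984 and 0.680) and Ier5 (0.970 and 0.726).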

How the data were processed

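RNA from RAW264.7 cells was prepared by the authors as stranded mRNA libraries, and read pairs were assigned to Ensembl mouse transcripts with Salmon. The deposited estimated counts (expected counts) are not normalized between libraries, and the deposited TPM values are scaled by Salmon to the same sum in each library. Of 118783 transcripts 98.2% were matched by identifier to GENCODE vM21 (GRCm38). The counts were added up per gene, rounded and fitted with a TPM-weighted length offset. A floor of 3 counts was 0.131 to 0.184 CPM, which covers counting error only. Groups came from the sample titles, 3 libraries in each. Genes that reached 10 counts in 3 or more libraries were tested with DESeq2 1.42.0 (R 4.3.3), with 2-sided tests and a Benjamini-Hochberg adjusted p under 0.05 over all tested genes. The 4 EV groups were fitted in 1 model without the title number, and title numbers with the EV group as a term. Numbers pair the libraries, since same-numbered libraries deviated together (r = 0.409 to 0.797 over 18 pairs), and the number was also fitted as a block. Alternatives were edgeR 4.0.16, no length offset, other count filters, leaving out libraries and, chosen after seeing the data, limma 3.58.1 on log2(TPM + 1) and fits without number 2. The scripts were checked on counts drawn with known differences. Members, gene lists and the comparison of number 2 with numbers 1 and 3 were chosen with earlier results of these data known. All members were named, and from each other list at most the 2 largest rises and 2 largest falls called with a mean normalized count of 50 or more; by likeness, up to 3 genes a member. A gene that the likeness rule named is not reported here.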

Additional observations from a re-analysis of the deposited data

Results flagged for a closer look

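Among 30 sets of 4 libraries of a title number, 1 had an extreme library by Dixon's criterion, where chance flags about 1 in 20: Nfkbiz in ctrl-EVs of number 1, at 959 normalized counts, above 713 to 739 in the other 3 libraries. This is the library from which the 3 paired differences of Nfkbiz in number 1 are taken.

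The difference of the miR-EV libraries from ctrl-EVs took opposite signs in different title numbers for 3 members, with every library of a number on one side of 0. These differences between numbers were not tested, and the 3 differences of a number share a ctrl-EVs library. The share of all tested genes with such a pattern was not counted, so it cannot be called particular to these members. For Nfkbiz the median was -0.38 in number 1 on the log2 scale, 0.34 in number 2 and 0.060 in number 3. For Nfkbia it was 0.19 in number 1 and 0.33 in number 2, against -0.22 in number 3. For Nfkb2 it was 0.062 in number 1 and -0.11 in number 3.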

How the results depend on the processing

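With the replicate block 0 of 10 members were called in every comparison of EV groups, as without it. The block changed no member's call. Over all tested genes it gave 8 calls in miR-142-5p-EVs, 57 in miR-183-5p-EVs, 9 in miR-222-3p-EVs, 223 for the 9 libraries together and 12 for any difference, against 1, 0, 0, 0 and 1 without it. Block and no length offset gave 4, 32, 6, 153 and 4. Numbers 1 and 3 alone with the block gave 27, 14, 20, 524 and 39. With and without the block edgeR gave 0 in all these comparisons, so that every blocked call was lost. For any difference and in miR-142-5p-EVs a mean of at least 50 counts gave 0, and so did the fit of the compared libraries alone for miR-142-5p-EVs.

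Leaving out single libraries, with or without the block, gave 0 to 63, 0 to 209, 0 to 93, 0 to 481 and 0 to 60 calls in these comparisons. Members called ran from 0 to 1 (Rel) for miR-183-5p-EVs, for the 9 libraries and for any difference. Number 1 against number 3 had 1897 to 3763 calls, of which 5 to 8 were members; number 2 against numbers 1 and 3 kept all 10.

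Many signs turned, those of Relb and Nfkbie among them. Nfkbie turned only in fits without the block that left out a single library, and so did Relb and Nfkb1 for the 9 libraries. Such a fit leaves the title numbers unbalanced between the EV groups. The ranges over single libraries below pool fits with and without the block. For the 9 libraries, Nfkb2 was 0.0092 without the length offset and 0.025 also with the block, Nfkbib -0.0025 in edgeR and Nfkbiz -0.0021 in edgeR with the block. Without number 2, Nfkbia was -0.0035, Nfkbib -0.0039, Nfkbiz -0.16 and Tnfaip3 in miR-142-5p-EVs -0.027. Leaving out single libraries, Rel ran from 0.0033 to 0.30 in miR-142-5p-EVs, 0.097 to 0.69 in miR-183-5p-EVs and 0.12 to 0.47 in miR-222-3p-EVs. The 9-library values ran from -0.20 to 0.29 for Nfkb1, -0.27 to 0.30 for Nfkb2, -0.36 to 0.0088 for Rela, -0.45 to 0.32 for Relb, -0.0047 to 0.34 for Nfkbia, -0.27 to 0.30 for Nfkbib, -0.63 to 0.22 for Nfkbie and -0.16 to 0.22 for Nfkbiz. Nfkbie ran from -0.84 to 0.25 in miR-142-5p-EVs, -0.98 to 0.19 in miR-183-5p-EVs and -0.83 to 0.23 in miR-222-3p-EVs, Rela from -0.32 to 0.15 in miR-222-3p-EVs, Tnfaip3 from -0.039 to 0.28 in miR-142-5p-EVs, and Rel from -0.13 to 0.11 between numbers 1 and 3. The 18 other fold changes of single mimics all turned sign under some alternative, with adjusted p of at least 0.150. The cause was not tested.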
